A study of Arabidopsis thaliana with 10 samples.

Results

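Genome-wide binding of the SEP3Δtet-AG heterocomplex was compared with that of SEP3 alone, at the level of genes, site positions and the DNA words under the peak summits. The comparison used 6 of the 10 Arabidopsis samples of the series, 2 libraries of SEP3Δtet-AG and 4 libraries of SEP3, chosen by their labels. In the first group SEP3Δtet carried a FLAG tag and AGAMOUS (AG) a Myc tag, and the complex passed over anti-FLAG and then anti-Myc beads. In the second group SEP3-FLAG was made on its own and passed over anti-FLAG beads. All proteins were produced in vitro in a wheat germ system and were offered the same material, naked genomic DNA amplified from 2-week-old Col-0 seedlings, so chromatin and plant cofactors were absent from every library. The pull-down is called DAP-seq for a single protein and seq-DAP-seq when a second tag is used in sequence. A single input DNA library served as the control of all 9 lists of peaks, and the 3 libraries of the full-length SEP3-AG complex were used here only beside the result. The groups therefore differed in at least 3 ways that cannot be told apart in these samples: the partner AG, the tetramerisation region, and the additional Myc purification.

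MADS-domain transcription factors specify the organs of the flower. They contact DNA as dimers at CArG boxes, short A/T-rich words between C and G letters, and many of them join into tetramers through a keratin-like K region that follows the DNA-binding domain. SEPALLATA3 (SEP3) takes part in petal, stamen and carpel identity by forming complexes with other floral MADS proteins, while AG gives stamens and carpels and ends the growth of the floral meristem. SEP3 can bind DNA as a homomer. SEP3Δtet is the product of a SEP3 splice variant that lacks part of the K region. In the annotation the 2 isoforms cloned by the authors encode 251 residues (SEP3) and 237 residues (SEP3Δtet), from 8 and 7 coding exons, and the complex of SEP3Δtet with AG is largely dimeric.

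The peak lists held 3331 and 2329 summits for SEP3Δtet-AG replicates 1 and 2, and 473, 1225, 1915 and 8916 summits for SEP3 replicates 1 to 4. The length of the SEP3 lists thus spanned a far wider range than that of the heterocomplex, and replicate 4 held more summits than the other 3 SEP3 lists and either heterocomplex list. In addition, the names of its peaks began with a different library code from the one shared by the 8 remaining lists. The gene counts are therefore given with and without this replicate, and the part of library preparation in its length was not tested. The lists hold no read totals. Totals are given in the study's supplement, and depth was not analysed here. In that supplement SEP3 replicate 1 had the most reads of the SEP3 libraries and the smallest share of reads in peaks. Replicate 4 had the largest such share of the SEP3 libraries. Median peak regions were 367 and 346 bp wide in SEP3Δtet-AG and 183 to 233 bp wide in SEP3. The shortest regions were 262 and 258 bp against 146 to 170 bp. Region width thus also separated the groups, and the cause of this difference was not tested. The median fold enrichment of a summit over the input background lay between 3.24 and 3.75 in all 6 lists.

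A gene was assigned to a complex when a summit lay between 3000 bp upstream of its start and 1000 bp downstream of its end in at least 2 libraries of that complex. Genes with such support from one complex and no summit in any library of the other are called SEP3Δtet-AG-only or SEP3-only, and genes with support from both are called shared. Of 27444 protein-coding genes, 280 (1.02%) were SEP3Δtet-AG-only, 881 (3.21%) were SEP3-only and 1832 (6.68%) were shared. These shares are the background against which every list of genes is set below. The rule was not even between the complexes. For SEP3Δtet-AG-only, a gene needed a summit in 2 of 2 libraries and none in 4 SEP3 libraries. For SEP3-only, it needed 2 of 4 and none in 2 SEP3Δtet-AG libraries. The part of this unevenness in the counts was not tested. The balance between the one-complex classes depended on SEP3 replicate 4 and on how calls were counted. Without that replicate, 1257 genes (4.58%) were SEP3Δtet-AG-only, 163 (0.594%) were SEP3-only and 1058 (3.86%) were shared, so that the larger class became the smaller. With equal numbers of top summits and no replicate 4, SEP3-only genes remained more numerous (204 against 137). With all libraries kept, the classes were level at −log10 q of at least 10 (422 SEP3Δtet-AG-only and 419 SEP3-only), and a summit in every library of a complex, which asks for 2 libraries of one and 4 of the other, gave 280 and 26. Of the 881 SEP3-only genes, 880 had a summit in replicate 4, 635 in replicate 3, 380 in replicate 2 and 55 in replicate 1. Without replicate 4, 163 of the SEP3-only genes kept their assignment. The 280 SEP3Δtet-AG-only genes could not lose theirs, since they lack a summit in every SEP3 library by rule.

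**Figure D1:**
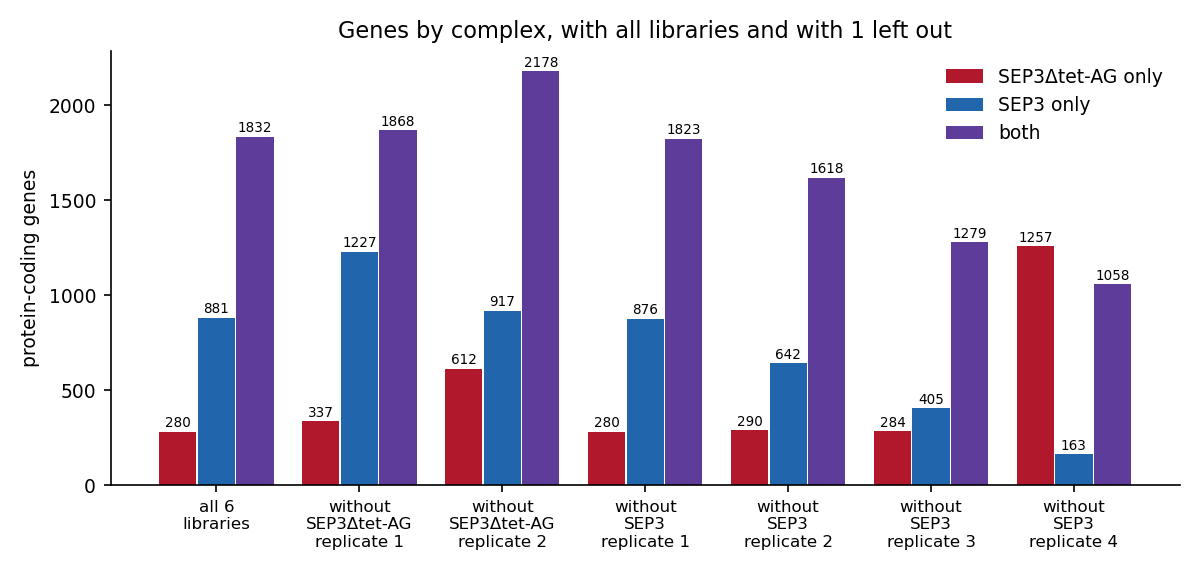
Number of protein-coding genes (vertical axis) that were SEP3Δtet-AG-only (red), SEP3-only (blue) or shared, drawn as both (purple), with all 6 libraries and with each library left out in turn. SEP3-only genes outnumber SEP3Δtet-AG-only genes in every column but that without SEP3 replicate 4, where 1257 stand against 163.

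Many genes sat close to the threshold. A further 991 genes had both heterocomplex libraries and exactly 1 SEP3 library, which was replicate 4 for 977 of them. Another 382 genes had 2 or more SEP3 libraries and exactly 1 heterocomplex library, replicate 1 in 346 cases. Of the SEP3-only genes, 719 had exactly 2 SEP3 libraries, 136 had 3 and 26 had all 4. A missing summit shows that no peak was called at the q-value threshold of that library, not that the site was free of protein. Neighbouring genes can lie in reach of the same summit, and the best summits of the 280, 881 and 1832 genes fell on 179, 575 and 1116 distinct sites, called lead sites. In the shared genes the nearest summits of the 2 complexes lay within 200 bp of each other in 1811 of 1832 cases (98.9%, 95% Wilson interval 98.3 to 99.2, which covers counting error only).

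The DNA under the lead sites is shown for genes that the naming rule picked and that carried one of 2 words. The sequences are read from the TAIR10.1 genome on its plus strand, with capitals marking the word. The first sites are SEP3Δtet-AG-only, beyond the end of the armadillo-repeat gene AT5G65920 (chr5:26363634-26363693, within 1000 bp upstream of a neighbouring gene) and upstream of the RNA-binding protein gene AT5G55670 (chr5:22547565-22547594, in an annotated UTR). The next 3 are SEP3Δtet-AG-only once SEP3 replicate 4 is left out, in the promoter of the homeobox gene KNAT2 (chr1:26575614-26575673), upstream of the growth regulator GRF2 (chr4:17730620-17730679) and in a UTR of the pyruvate dehydrogenase kinase gene PDK (chr3:1992828-1992857). In each the capitals are a CArG box with at most 1 mismatch between TTN on its left and NAA on its right.
AT5G65920: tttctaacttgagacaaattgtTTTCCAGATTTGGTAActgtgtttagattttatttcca
AT5G55670: ttcttaaTTTCCATTTCTGGTAAtgtaaaa
KNAT2: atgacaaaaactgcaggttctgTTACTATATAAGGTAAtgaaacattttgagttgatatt
GRF2: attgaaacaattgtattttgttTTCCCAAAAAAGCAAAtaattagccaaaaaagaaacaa
PDK: ttagtatTTACCTGATTTGGTAAaaagttt

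The second group are SEP3-only sites, upstream of the floral meristem identity gene LEAFY, LFY (chr5:24843163-24843222), in the promoters of the ethylene biosynthesis gene ACS5 (chr5:26333546-26333605) and of the shoot regeneration gene ESR1 (chr1:4429675-4429704), at the auxin response repressor gene IAA29 (chr4:15583344-15583373) and at the end of the RING/U-box gene AT5G41400 (chr5:16569360-16569389). Here the capitals are CTA, then 4 A or T, then TAG. This palindrome is the box known from the animal MADS-domain factor MEF2. It has 2 mismatches to a CArG box (CC, 6 A or T, GG), so the 2 kinds of capitals cannot mark the same position.
LFY: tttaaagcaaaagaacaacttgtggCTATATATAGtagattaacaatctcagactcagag
ACS5: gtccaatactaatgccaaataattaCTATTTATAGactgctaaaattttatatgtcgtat
ESR1: atttatgtacCTATAAATAGatagaagaag
IAA29: tttccttttaCTATAAATAGgaatactcat
AT5G41400: taaaaagagtCTATAAATAGtaaaattaag

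The last pair comes from shared genes with the flanked box, at sites within the best 2.36% of all 6 lists. They are an intron of AT1G19330, annotated as a histone deacetylase complex subunit (chr1:6683037-6683066), and the UTR of APETALA3, AP3 (chr3:20121208-20121237), a MADS gene of petals and stamens. The pair was chosen for this word. The shared gene AT1G25230, within the best 0.991% of all 6 lists, had a CArG box but no flanked box and is not shown.
AT1G19330: aacatttTTACCAAAAAAGGAAAgaaatca
AP3: acttgagTTACTAAAAATGGAAAgtattgc

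Both words were chosen after these sequences had been seen, and they were then counted over all lead sites within 50 bp of the summit. Both words are palindromic in form, so that a search of one strand covers the other. The MEF2-type box stood at 90 of 575 SEP3-only lead sites (15.7%, Wilson 12.9 to 18.8) and at 2 of 179 SEP3Δtet-AG-only lead sites (1.12%, 0.307 to 3.98). The flanked CArG box showed the opposite order, with 6 of 575 SEP3-only sites (1.04%, 0.479 to 2.26) and 18 of 179 SEP3Δtet-AG-only sites (10.1%, 6.46 to 15.3). Shared sites held both, at 12.6% and 18.1% of 1116. In all windows of 101 bp of the genome the MEF2-type box occurred in 0.365% and the flanked box in 0.188%. The interval of the SEP3Δtet-AG-only sites thus included the genome share for the MEF2-type box and lay above it for the flanked box, and the SEP3-only sites lay above it for both words. Both readings at the low shares depended on replicate 4, as given in the next paragraph. The intervals cover counting error over sites only and are no test against the genome. Genome windows were not matched to the lead sites for place or A/T content. A/T content was 69.3% at SEP3Δtet-AG-only and 70.9% at SEP3-only lead sites, against 64.0% of the genome.

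The same order held without SEP3 replicate 4, where 163 of the SEP3-only genes were left and 977 genes joined the SEP3Δtet-AG-only class. There the MEF2-type box stood at 16% of 100 SEP3-only sites and 3.96% of 757 SEP3Δtet-AG-only sites, and the flanked box at 1.0% and 13.2%. Here the interval of the SEP3Δtet-AG-only sites for the MEF2-type box (2.79 to 5.6) lay above the genome share, and that of the SEP3-only sites for the flanked box (0.177 to 5.45) included it. After removal of the sites of all genes named by rank or list, the shares were 1.22% of 164 against 15.7% of 543 for the MEF2-type box and 9.76% against 1.10% for the flanked box. The CArG box without a mismatch did not separate the classes, with 7.82% of SEP3Δtet-AG-only and 7.48% of SEP3-only lead sites against 18.2% of shared ones and 0.593% of genome windows.

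**Figure D2:**
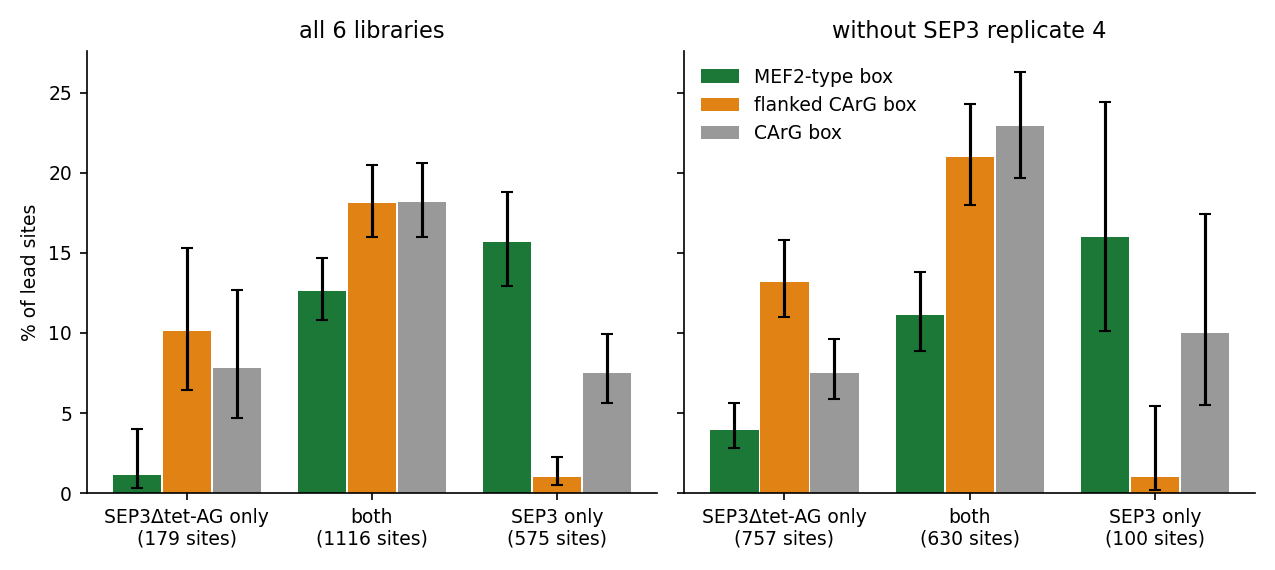
Share of lead sites (%, vertical axis) with a MEF2-type box (green), a flanked CArG box (orange) or a CArG box (grey) within 50 bp of the summit, for the 3 gene classes with all 6 libraries and without SEP3 replicate 4. Bars are counts over sites and whiskers are 95% Wilson intervals. The green and orange bars exchange their order between the one-complex classes in both panels, and the grey bars do not.

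The shares were also taken over each library's own summits at one-complex genes. These are a description and carry no test, because the classes were set by the same labels and the words were picked from sites of these classes. Both SEP3Δtet-AG libraries hold all 280 genes by rule, so their values count almost the same sites again. SEP3Δtet-AG had a MEF2-type box at 3 of 185 summits in replicate 1 (1.62%) and 3 of 181 in replicate 2 (1.66%). SEP3 had one at 4 of 36, 39 of 243, 58 of 438 and 111 of 812 summits in replicates 1 to 4, or 11.1%, 16%, 13.2% and 13.7%. For the flanked box the heterocomplex libraries gave 9.73% and 9.94%. SEP3 replicates 2 to 4 gave 1.23%, 0.685% and 1.23%. Replicate 1 had 0 of 36, for which the limit of 3 counts is 8.33% and the Wilson upper limit 9.64%, close to the heterocomplex shares.

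Whole lists, in which no gene class enters, gave a smaller contrast. Both words had been picked from sites of these same libraries, some of them among the top summits. The p-values for the words, here and in the next paragraph, are therefore descriptive and give no independent support. To compare lists of unequal length, the 473 best summits by −log10 p were taken from every library, 473 being the length of the shortest list. The MEF2-type box occurred within 50 bp in 8.88% and 8.46% of these summits in SEP3Δtet-AG, and in 12.3%, 14%, 16.5% and 16.1% in SEP3 replicates 1 to 4. Every SEP3 library was above both heterocomplex libraries, and the difference of the means was −6.03 percentage points. A two-sided exact permutation test over the libraries (n = 2 and 4) returned p = 0.0667, or 0.356 after Benjamini-Hochberg adjustment over the 8 measures compared at summits. This is the smallest value that the 15 assignments of 2 against 4 libraries allow, so no test of this kind could pass 0.05. The labels do not say whether libraries came from separate protein preparations, so the p-values measure the spread between libraries. The 3 SEP3-AG libraries, which share the AG partner and the Myc step with the dimer, had 8.67%, 9.30% and 10.1%. In the complete lists the shares were 7.21% and 7.73% for SEP3Δtet-AG and between 9.14% and 12.3% for SEP3, again apart.

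The wider class of boxes, C followed by 8 A or T and G, includes the MEF2-type box. It was present at 18.4% and 19.0% of the top summits in SEP3Δtet-AG and at 24.5%, 22%, 27.7% and 29.0% in SEP3 (p = 0.133, exact permutation, adjusted 0.356, n = 2 and 4), against 6.79% of genome windows. Summits with a box of this class but no MEF2-type box made up 9.51% and 10.6% in SEP3Δtet-AG and 8.03% to 12.9% in SEP3, which overlapped. The flanked CArG box reached 34.2% and 26.2% of the top summits in SEP3Δtet-AG. In SEP3 it reached 17.3%, 27.1%, 18.6% and 19.9%, so that replicate 2 lay within the heterocomplex range, and the difference of 9.51 points had p = 0.133 (exact permutation, adjusted 0.356, n = 2 and 4). SEP3-AG had 20.7%, 20.7% and 22.8%. In the complete lists the flanked box was at 14.8% and 15.3% of SEP3Δtet-AG summits, inside the SEP3 range of 5.69% to 17.3%.

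**Figure D3:**
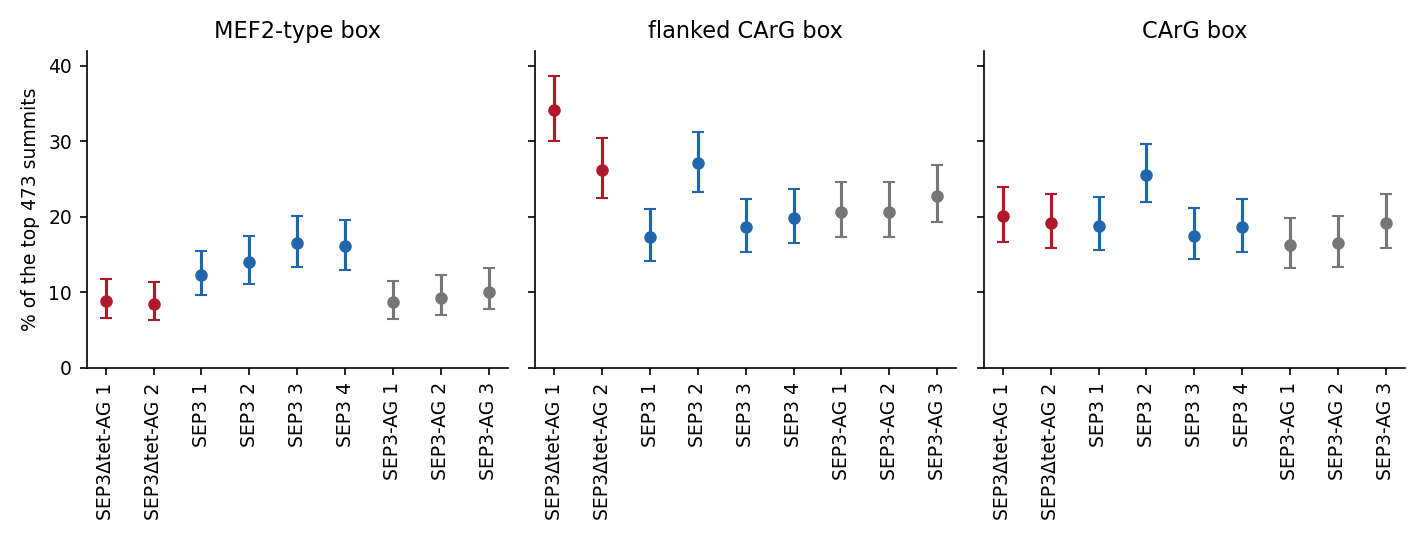
Share of the top 473 summits (%, vertical axis) with a MEF2-type box, a flanked CArG box or a CArG box within 50 bp, for each library of SEP3Δtet-AG (red), SEP3 (blue) and SEP3-AG (grey). Points are single libraries and whiskers 95% Wilson intervals. The SEP3 libraries lie above both other complexes for the MEF2-type box alone.

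CArG boxes without a mismatch did not separate the complexes. They stood within 50 bp of 20.1% and 19.2% of the top summits in SEP3Δtet-AG and of 18.8%, 25.6%, 17.5% and 18.6% in SEP3, with means of 19.7% ± 0.598 (SD, n = 2) and 20.1% ± 3.67 (SD, n = 4, p = 1.0, exact permutation). Replicate 2 of SEP3 stood apart from the other 3. Runs of 4 or more A, or 4 or more T, within the 6 central letters, known to narrow the minor groove, were present in 62.1% and 59.3% of the boxes of SEP3Δtet-AG. In SEP3 they were present in 51.7%, 60.3%, 61.4% and 58.0% of 83 to 121 boxes, so the groups overlapped (p = 0.600, exact permutation, n = 2 and 4). A/T content over the 101 bp was 72.2% and 71.7% against 68.7% to 72.6%, above the genome's 64.0% in every list.

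Words were also related to peak rank within each list. Summits with a flanked box had the better median rank in every list, at the top 25.4% and 32.8% of the SEP3Δtet-AG lists and between 23.1% and 27.4% of the SEP3 lists, where the median of all summits is by definition near 50%. Summits with a MEF2-type box had a median rank of 42% and 49.7% in the SEP3Δtet-AG lists. In SEP3 the corresponding values were 55.9%, 42.6%, 36.2% and 30.4%, so the ranges overlapped and only replicates 3 and 4 placed these summits clearly above the middle.

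A summit was placed in the gene body first, then in a promoter, defined as the 1000 bp upstream of a start. Promoters held 34.2% and 32.8% of SEP3Δtet-AG summits and 36.2%, 25.4%, 37.6% and 35.4% of SEP3 summits, against 14% of the genome. Introns held 15.2% and 16.6% against 15.9%, 23.6%, 13.4% and 12.9%, with 15.2% of the genome. Neither share differed beyond the spread of the libraries (p = 1.0 and p = 0.933, exact permutation, n = 2 and 4). SEP3 replicate 2 was low in promoters and high in introns, UTRs and coding exons. Between 2.25% and 7.43% of the summits of each library fell in coding exons, against 28.3% of the genome. At the lead sites, promoters held 36.9% of both one-complex classes, whereas coding exons held 12.8% of the SEP3Δtet-AG-only sites, 3.83% of the SEP3-only sites and 3.58% of the shared ones. Without SEP3 replicate 4 the SEP3Δtet-AG-only share was 7.13%.

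**Figure D4:**
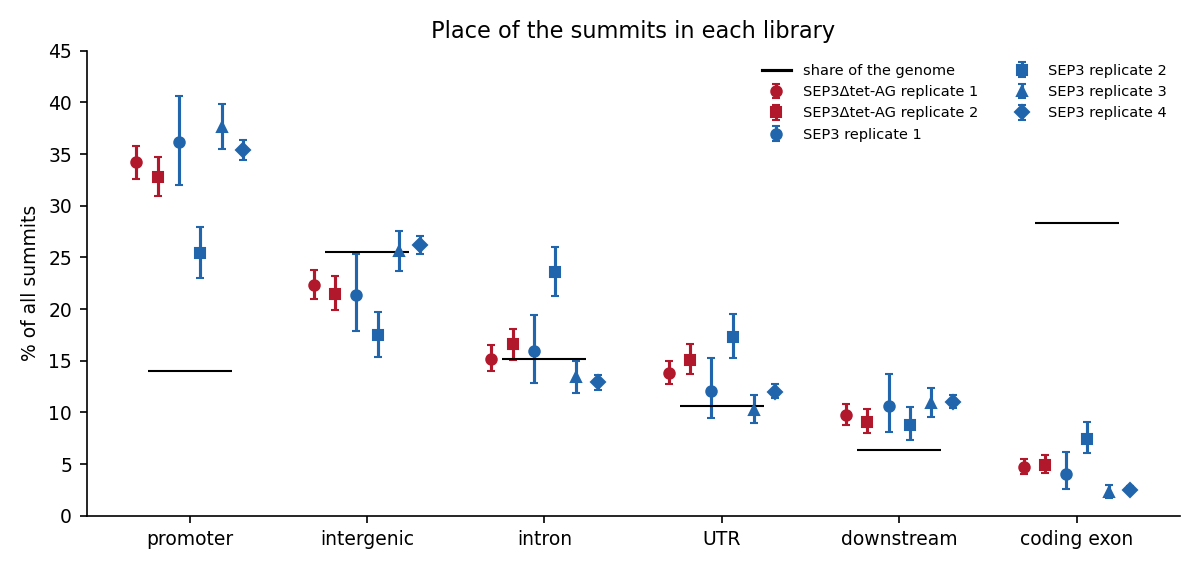
Share of all summits (%, vertical axis) in each kind of genomic place for the 2 SEP3Δtet-AG libraries (red) and the 4 SEP3 libraries (blue), with 95% Wilson intervals and, as black lines, the share of the genome. SEP3 replicate 2 (blue squares) lies apart from the other SEP3 libraries in promoters (25.4%) and introns (23.6%).

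One-complex genes were not the strongest sites of their lists. The mean rank of the best summit had a median of 58.5% among SEP3Δtet-AG-only genes and 48.5% among SEP3-only genes, against 32.1% for shared genes. Without SEP3 replicate 4 the order of the one-complex classes turned, with 53.7% and 62.3%. Within SEP3Δtet-AG replicate 1, for example, the median fold enrichment was 3.62 at the summits of its one-complex genes and 4.68 at those of shared genes.

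The best-ranked SEP3Δtet-AG-only gene was AT5G65920, with ranks 255 of 3331 and 252 of 2329 and fold enrichments of 6.54 and 4.75 in replicates 1 and 2. It had no summit in any SEP3 library. PME44, a pectin methylesterase of the cell wall, followed at ranks 404 and 283, from an intronic site of a neighbouring gene 2685 bp upstream of its start. The mitogen-activated protein kinase gene MPK18 had its summit 2 bp upstream of its start, at ranks 559 and 296. COL9, a CONSTANS-like B-box gene of flowering time, was occupied 774 bp downstream of its start, in an intron, at ranks 822 and 404. The other 8 genes were AT3G28680, AT3G13180, AT5G55670, AT5G13810, HSD3, the F-box gene HWS, the tocopherol cyclase gene VTE1 and ASML2. The fold enrichment at their lead summits ran from 4.41 to 7.20 over the 12 genes. None of the 12 carried a MEF2-type box or a CArG box without a mismatch, 2 carried the flanked box, and 7 had a box with at most 1 mismatch. The MEF2-type and flanked words were picked after sequences of named genes had been read. Their counts among named genes, here and below, repeat that choice and describe these genes only.

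When SEP3 replicate 4 was left out, 11 other genes joined AT5G65920 in the list of 12, each with a summit in 1 SEP3 library, replicate 4. The first was BRM, which encodes a SWI2/SNF2 chromatin-remodelling ATPase. Its site lay 15 bp upstream of the gene, at ranks 95 and 143 in SEP3Δtet-AG, with fold enrichments of 8.0 and 5.05, and at rank 830 of 8916 in SEP3 replicate 4, with 4.09. GRF2 stood at ranks 278 and 228 in SEP3Δtet-AG and at 2666 in SEP3 replicate 4. Of these 12 genes, 7 carried the flanked box and none the MEF2-type box. Over all lead sites of this class the shares were 13.2% and 3.96%.

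Among SEP3-only genes, those found in 3 or 4 SEP3 libraries were ranked first. CYP79F1, an enzyme of glucosinolate synthesis, had summits in all 4 at ranks 135, 215, 434 and 227, and fold enrichments of 3.97, 4.77, 4.08 and 6.26. AT3G49880, a glycosyl hydrolase gene, was also present in all 4, at ranks 92, 413, 404 and 76, from a promoter site 66 bp upstream of its start. ACS5 was found in replicates 2, 3 and 4 at ranks 429, 401 and 209. ESR1, an AP2-domain regulator of embryo patterning and shoot regeneration, was found in the same replicates at ranks 642, 310 and 396, its summit 51 bp upstream of the start. The remaining 8 were AT5G41400, AT1G50040, AT1G78620, the potassium channel gene KT2/3, AT1G22660, AT2G16030, AT5G52660 and AT4G22120. Of the 12, AT5G41400 and AT1G50040 had the best mean ranks (14.3% and 15.2%), ahead of CYP79F1 (17.8%). Of the 12, 3 carried a MEF2-type box, 2 a CArG box and none the flanked box. Over all lead sites of this class the shares were 15.7%, 7.48% and 1.04%. The list without replicate 4 was led by CYP79F1 and AT3G49880. ACT7, a vegetative actin gene, came next, with a summit in each SEP3 library and none in the 5 libraries that contained AG.

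Regulators of flower development showed which sites were common to both complexes. The best shared genes by mean rank were AT1G19330, AT1G25230, ZF14, AT1G69760 and AP3. AT1G19330 held rank 3 in both SEP3Δtet-AG lists and ranks 1, 1, 1 and 3 in SEP3. AP3 stood at ranks 49 and 55 in SEP3Δtet-AG and at 3, 3, 15 and 12 in SEP3. SHP2, a carpel and fruit MADS gene, was at 50 and 96 in SEP3Δtet-AG and at 297, 50, 108 and 423 in SEP3. The flowering integrator SOC1 (AGL20) had ranks 227 and 173 in SEP3Δtet-AG and 201, 206, 322 and 51 in SEP3. AG itself was at 287 and 544 in SEP3Δtet-AG and at 124, 770, 157 and 253 in SEP3. SUPERMAN (SUP), which sets the boundary between stamens and carpels, held 91 and 118 in SEP3Δtet-AG and lacked a summit in SEP3 replicate 1 only. AP1 lay low in the SEP3Δtet-AG lists, at 2744 of 3331 and 1957 of 2329 summits (82.4% and 84%). In SEP3 replicates 2 to 4 it was at 54.7%, 19.1% and 8.36% of the list, so in replicate 2 it was in the lower part as well.

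**Figure D5:**
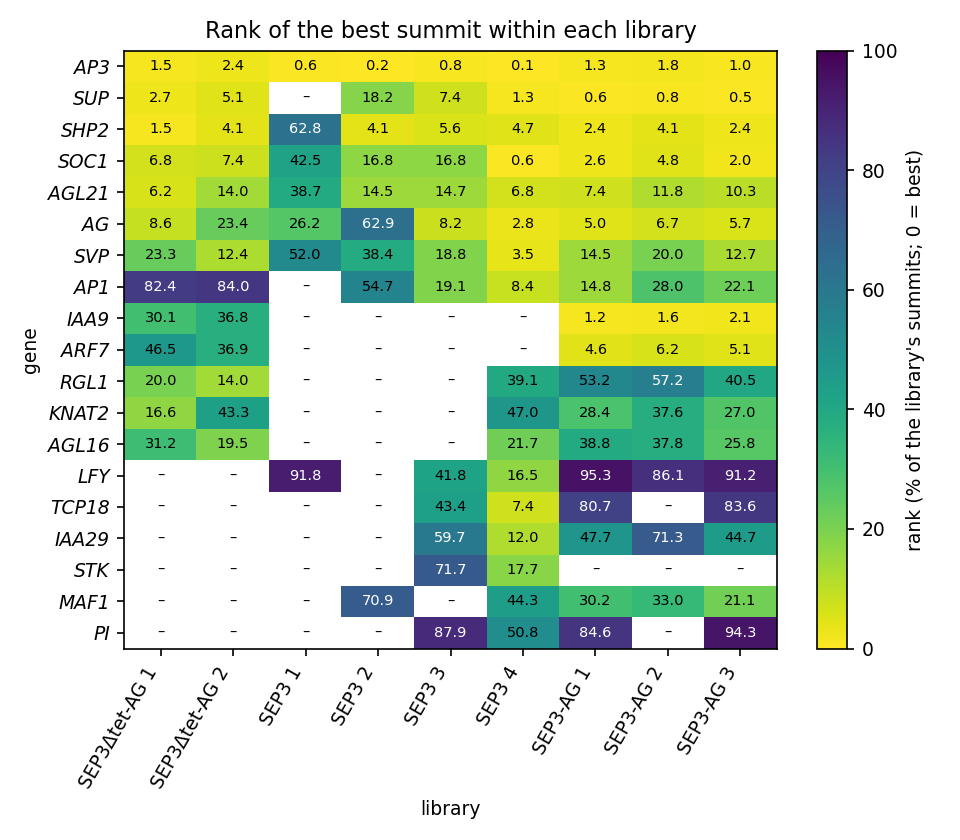
Rank of the best summit of 19 developmental regulators (rows) in each library (columns), as a percentage of the summits of that library, where 0 is the best and a dash is no summit. The upper 8 genes are shared, IAA9 and ARF7 are SEP3Δtet-AG-only in both versions, RGL1, KNAT2 and AGL16 are so without SEP3 replicate 4, and the lower 6 are SEP3-only with all libraries.

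LFY was the sole member of the gene lists that remained SEP3-only without replicate 4. Its summit lay in the intergenic upstream region, 1039 bp from the start, at rank 434 of 473 in replicate 1, 801 of 1915 in replicate 3 and 1472 of 8916 in replicate 4, with fold enrichments of 2.87, 3.48 and 4.47. In the SEP3-AG lists it was at the lower end, at 95.3%, 86.1% and 91.2%. Counted with replicate 4, the SEP3-only members were LFY, the petal and stamen gene PI, the ovule gene STK, the flowering repressor MAF1, the axillary meristem gene LAS, the branching regulator TCP18 (BRC1), the organ polarity gene KAN2 and the auxin genes IAA29, ARF1 and ARF2. Apart from LFY, each had exactly 2 SEP3 libraries, of which replicate 4 was one. PI stood at rank 1684 of 1915 and 4525 of 8916, and STK at 1373 and 1580 of the same lists.

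The SEP3Δtet-AG-only members of the lists were both auxin genes. IAA9, an Aux/IAA repressor involved in fruit initiation, was occupied in an intron 513 bp from its start, at ranks 1003 and 857 in SEP3Δtet-AG. ARF7 (NPH4), an auxin response factor, was occupied just beyond its end at ranks 1549 and 859. Both stood high in the SEP3-AG lists, IAA9 at ranks 110, 108 and 201 and ARF7 at 407, 411 and 485. Without SEP3 replicate 4, 13 more list members were SEP3Δtet-AG-only. They were the DELLA gene RGL1 (ranks 665 and 325), KNAT2 (552 and 1008), the MADS gene AGL16, the boundary gene BOP1, the valve margin gene IND, the organ polarity genes YAB2 and YAB3, the leaf and branching genes TCP2, TCP4 and TCP12, IAA15 and the gibberellin 3-oxidase genes GA3OX2 and GA3OX4, which share a summit. TCP2 was the exception among them in having a MEF2-type box.

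Over the 11 lists together, 228 genes of flower, meristem, hormone and leaf development, 2 (0.877%) were SEP3Δtet-AG-only, 10 (4.39%) were SEP3-only and 41 (18%) were shared, against 1.02%, 3.21% and 6.68% of all genes. Without SEP3 replicate 4 the counts were 15 (6.58%), 1 (0.439%) and 23 (10.1%). The one-complex shares were close to the background in both versions, and the shared class was the one in which members of these lists were frequent. The lists were chosen with earlier results of these data known, so this share describes the chosen members only. Of 17 floral MADS genes 6 were shared, as were 7 of 16 flowering-time MADS genes and 4 of 6 AP2-type repressors of flowering, although without replicate 4 these fell to 4, 6 and 1. Among the others, 6 of 27 meristem and boundary genes, 6 of 36 carpel, ovule and stamen genes, 4 of 24 gibberellin genes, 2 of 24 TCP genes, 2 of 5 root MADS genes, 1 of 16 SBP genes and 0 of 9 leaf polarity genes were shared. The auxin list, with 51 genes, gave 2 SEP3Δtet-AG-only, 3 SEP3-only and 3 shared genes.

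Gene families were also taken from the annotation words. Of 120 MADS-box genes 23 (19.2%) were shared, 5 were SEP3-only and 1 was SEP3Δtet-AG-only. WRKY genes, many of them regulators of defence, had 7 of 72 (9.72%) in the SEP3-only class, and 0 without replicate 4. Over all genes this class also fell, from 3.21% to 0.594%. Ethylene response factors had 14 of 106 shared (13.2%), NAC genes 14 of 118 (11.9%) and auxin-responsive genes 14 of 111 (12.6%). F-box genes, with 652 members, had 6 SEP3Δtet-AG-only (0.920%, near the background), 14 SEP3-only (2.15%) and 19 shared genes (2.91%). Cytochrome P450 genes had 3 SEP3Δtet-AG-only and 5 SEP3-only members of 239 with all libraries, and 19 (7.95%) against 0 without replicate 4, where all genes gave 4.58% and 0.594% and turned the same way. The bHLH, MYB, homeobox, zinc finger, P450, receptor kinase, pectin, expansin and peroxidase genes had between 2.94% and 9.90% shared members. With all libraries the highest SEP3Δtet-AG-only share of the 15 families was 2.54%, that of the NAC genes (3 of 118).

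The full-length SEP3-AG complex was set beside the classes. Its libraries share the input control with the others, so the values are descriptive. Any SEP3-AG summit in the gene window was counted, so it need not lie at the lead site of the gene. SEP3-AG replicates 1, 2 and 3 had a summit at 72.9%, 63.2% and 79.3% of the SEP3Δtet-AG-only genes, at 68.1%, 52.3% and 68.3% of the SEP3-only genes and at 99.2%, 97.1% and 99.4% of the shared genes, against 38.3%, 30.3% and 39.6% of all genes. In each library the share was higher for SEP3Δtet-AG-only genes, by 4.75, 10.9 and 11 points, with a mean of 8.86 ± 3.56 (SD, n = 3). Without SEP3 replicate 4 the mean gap was 20.9 points. For the 26 SEP3-only genes found in all 4 SEP3 libraries, it turned to −1.29 points. Where SEP3-AG had a summit, its median rank was 39.4%, 46.6% and 39.8% at SEP3Δtet-AG-only genes and 50.2%, 50.3% and 48.2% at SEP3-only genes. At all protein-coding genes with a summit the medians were 43.8%, 44.3% and 42.6%. The SEP3Δtet-AG-only genes lay close to these values, and behind them in SEP3-AG replicate 2. SEP3-AG had no summit in any of its libraries at 47 of the 280 SEP3Δtet-AG-only genes (16.8%) and at 225 of the 881 SEP3-only genes (25.5%). Both shares were below the 57.4% of all protein-coding genes.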

How the data were processed

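After trimming, the authors placed reads on the nuclear TAIR10 chromosomes (bowtie2), retaining unique alignments free of duplicates. They called peaks with MACS2 in each library separately against the input DNA, with a q-value threshold of 0.0001, an effective genome size of 120000000 and several summits per region. The deposited lists are per library, and consensus peaks that the authors defined between replicates were not used here. As deposited, the lists give the fold enrichment of each summit, a ratio over the local background, and −log10 of its p-value and q-value. Both are the authors' values and were used to describe, rank and filter summits within a list. Coordinates are given 1-based, and all lay within the TAIR10.1 chromosomes, whose annotation supplied the genes.

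Summits were ranked by −log10 p. The rule for named genes took the 12 genes of each one-complex class with the best mean rank (for SEP3, genes with 3 or 4 libraries first), the same without SEP3 replicate 4, the 5 best shared genes and every one-complex member of the lists. Of several genes on a summit, the nearest was taken. Of 232 list names, 231 matched a protein-coding gene. The members and lists were chosen with earlier results of these data known, and the MEF2-type and flanked words after sequences had been read. Words were sought within 50 bp of a summit. For lead sites, the best summit of the gene in the libraries of the complex was used. Group means were compared by exact permutation over libraries, two-sided. Intervals are 95% Wilson. The search for CArG boxes without a mismatch, the gene classes and the permutation test were tried on simulated sequences, summits and values. The other word searches and the placing of summits were not. Python 3.11.15 with numpy 2.4.6, pandas 2.3.3 and scipy 1.17.1 was used. Alternatives were other library requirements, windows, thresholds and box definitions, and each library left out.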

Additional observations from a re-analysis of the deposited data

Results flagged for a closer look

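In a group of 4 libraries, the gap of the highest or lowest value to its neighbour was set against the range and compared with Dixon's 95% critical value, for 12 measures of the SEP3 libraries. Chance marks about 1 in 20 such groups. SEP3 replicate 4 stood apart by its number of summits, 8916 against 473 to 1915, with a ratio that lay just past the critical value. SEP3 replicate 2 stood apart by its share of top summits with a CArG box, 25.6% against 17.5% to 18.8%, with a ratio of 0.842.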

How the results depend on the processing

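Gene counts are given in the order SEP3Δtet-AG-only, SEP3-only and shared. They were 669, 5884 and 4072 with any 1 library, 280, 26 and 495 with every library, 121, 296 and 352 with the top 473 summits of each list, 422, 419 and 1410 at −log10 q of at least 10, and 211, 473 and 921 with a window from 1000 bp upstream to the gene end. With each library left out in turn they ran from 280 to 1257, from 163 to 1227 and from 1058 to 2178. Leaving out SEP3 replicate 3 (405 SEP3-only genes) or SEP3 replicate 4 moved a count by more than 1.5 times. So did leaving out SEP3Δtet-AG replicate 2 (612 SEP3Δtet-AG-only genes), but with 1 heterocomplex library left the requirement also fell to 1 library. A further pair of settings was chosen after seeing the data. The top 1225 summits without SEP3 replicate 1 gave 362, 534 and 888, and the top 473 without SEP3 replicate 4 gave 137, 204 and 293.

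None of the 4 shares planned for testing could pass 0.05, and their small differences changed sign. The promoter difference (−0.129 points) ran from −2.88 to 1.19 with a library left out and was 0.137 with the best summit of each region. The intron difference (−0.529) ran from −1.71 to 1.86 and was 1.16 over equal numbers of top summits. The CArG difference (−0.476) ran from −1.34 to 1.34 and was 4.02 with 1 mismatch allowed. The A-tract difference (2.87) was −4.70 over all summits, −0.664 within 100 bp and −3.65 for runs of 5. With a replicate block, which pairs libraries that share only a number, the promoter difference was 2.73, the intron difference −3.83, the CArG difference −2.54 and the A-tract difference 4.71, and the MEF2-type difference −4.44. The MEF2-type difference at top summits ran from −6.84 to −5.43 with a library left out, was −3.77 over all summits and −7.51 within 100 bp, and kept its sign throughout. The flanked-box difference of 9.51 points was 5.50 without SEP3Δtet-AG replicate 1 and 2.61 over all summits. The SEP3-AG gap between the one-complex classes was 20.9 points without SEP3 replicate 4 and −1.29 with every library required. The cause of these shifts was not tested.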
